A study of Homo sapiens with 14 samples.

Results

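The genes of the YAP and TAZ branch of Hippo signalling were examined in the chromatin of LX-2 cells. The 10 genes were the coactivators YAP1 and WWTR1 (which encodes TAZ), the DNA-binding partners TEAD1, TEAD2, TEAD3 and TEAD4, the kinases LATS1 and LATS2, and the cofactors VGLL3 and VGLL4. They are 10 of 19794 protein-coding genes. A peak belonged to a gene when it overlapped the gene body plus 10 kb on each side in hg19 (GRCh37). Over the 14 peak lists, 400 peaks met this rule.

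In the Hippo pathway, the LATS kinases phosphorylate YAP and TAZ, which keeps them in the cytoplasm or marks them for degradation. Unphosphorylated YAP and TAZ enter the nucleus and, having no DNA-binding domain, act through TEAD factors. On a stiff matrix, tension of the actin cytoskeleton favours their nuclear form, and in hepatic stellate cells YAP takes part in the turn to myofibroblasts. Many enhancers bound by TEAD are also bound by AP-1, the dimer to which JUN belongs.

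LX-2 is an immortalised human hepatic stellate cell line, labelled wild type, so all libraries come from the same cell line. Cells had grown for 2 days on soft or stiff matrix, and targets were mapped by CUT&Tag, in which an antibody guides a transposase to its target. Phosphorylated JUN (p-JUN), H3K4me3 (promoters) and H3K27me3 (repressed chromatin) had 2 libraries per matrix, and H3K27ac (active promoters and enhancers) had 1 merged list per matrix, so for H3K27ac the replicate error is unknown. The titles of the stiff p-JUN libraries carry TCP, an abbreviation the study uses for tissue culture plastic, while their treatment label is the stiff matrix. Whether those cells were on plastic or on a stiff matrix cannot be told from the labels, so soft and stiff mean the treatment labels in every p-JUN contrast.

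The p-JUN lists held 48163 to 54168 peaks, the H3K4me3 lists 18096 to 18857 and the H3K27me3 lists 6974 to 19843. The soft H3K27ac list held 18238 peaks and the stiff list 13322. The median summit held 60 to 64 fragments for p-JUN, 120 to 207 for H3K4me3 and 26 to 27 for H3K27ac. H3K4me3 stood within 1 kb of a start site in all 4 libraries at 4 of 7 mesenchymal or stellate markers (ACTA2, COL1A1, PDGFRB and VIM, but not COL1A2, DES or LRAT), at 0 of 5 hepatocyte markers, at EPCAM and SOX9 of 4 epithelial markers, at KDR of 3 endothelial markers and at CD14 of 4 leukocyte markers. PECAM1, also on the endothelial list, was not found in the annotation used. The same call was present at 62.8% of all coding genes, so these counts do not by themselves identify the cell type.

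Sequences at p-JUN summits are given first, for regions on which the results below turn. They are plus-strand bases of GRCh37 centred on the summit. Capitals mark a match to the AP-1 motif TGAGTCA, to which JUN dimers bind, or the TEAD motif GGAATG, each searched on both strands, so that TGACTCA and CATTCC are the minus-strand forms. The WWTR1, LATS2, TEAD2 and first YAP1 sequences are the regions of highest p-JUN fold of those genes. The TEAD4 intron is shown for its AP-1 and TEAD matches, and the second YAP1 intron for its difference between the matrices.
WWTR1 intron (chr3:149364115-149364215): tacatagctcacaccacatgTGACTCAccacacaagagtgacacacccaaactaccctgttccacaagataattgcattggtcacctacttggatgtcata
LATS2 upstream flank (chr13:21643877-21643977): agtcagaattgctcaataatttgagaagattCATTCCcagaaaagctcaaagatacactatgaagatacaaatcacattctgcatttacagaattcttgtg
TEAD2 upstream flank (chr19:49866885-49866985): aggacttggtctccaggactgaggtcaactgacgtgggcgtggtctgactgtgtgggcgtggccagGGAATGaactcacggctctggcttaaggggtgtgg
TEAD4 intron (chr12:3108271-3108371): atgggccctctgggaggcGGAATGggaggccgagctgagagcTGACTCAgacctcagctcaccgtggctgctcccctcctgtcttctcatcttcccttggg
YAP1 intron, highest fold (chr11:102009783-102009883): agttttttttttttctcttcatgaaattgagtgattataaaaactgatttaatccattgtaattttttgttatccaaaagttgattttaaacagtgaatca
YAP1 intron, fewer fragments on stiff (chr11:102049073-102049173): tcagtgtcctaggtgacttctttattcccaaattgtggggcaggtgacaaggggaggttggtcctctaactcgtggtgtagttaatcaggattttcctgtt

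AP-1 motifs lay within 50 bp of the summit in 16 of the 77 p-JUN regions around these genes (20.8%), against 30.5% of all 61411 p-JUN regions. TEAD motifs did so in 11 of 77 (14.3%), against 9.60%. Regions with a TEAD motif were found at TEAD1 (3), LATS2 (2), VGLL4 (2), YAP1, WWTR1, TEAD2 and TEAD4 (1 each), and at none of the regions of TEAD3, LATS1 and VGLL3. AP-1 and TEAD motifs met in 1 region, the TEAD4 intron shown above, a share of 1.30% against 3.00% of all regions. None of the 18 regions within 1 kb of a coding start site held the AP-1 motif, against 9.28% of all such regions, and 16 of the 59 others (27.1%) did, against 35.2%. These are matches of letters and not measured sites, and with GGAATGT in place of GGAATG the TEAD share was 5.19%, against 2.88% of all regions.

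The 10 promoters differed mainly in acetylation. H3K4me3 lay within 1 kb of a coding start site in all 4 libraries at 9 of the 10 genes, against 62.8% of all coding genes. p-JUN did so at 9 of 10 genes, against 38.2%. A peak near any coding start site counted, and the genes had from 1 (LATS2) to 15 (VGLL4) such sites. The shares over coding genes here were not matched for the number of start sites. LATS2 was the gene without H3K4me3 in all libraries, and TEAD3 the gene without p-JUN. Within 2 kb of a start site, H3K4me3 was in all 4 libraries at all 10 genes. H3K27ac was called in both lists at WWTR1, TEAD2, LATS1 and VGLL4, against 21.3% of coding genes. It was called in the soft list alone at YAP1, TEAD4 and LATS2, against 10.7%, and in the stiff list alone at none, against 2.58%. TEAD1, TEAD3 and VGLL3 had no H3K27ac peak there in either list. With 500 bp in place of 1 kb, TEAD2 no longer had p-JUN in all 4 libraries or H3K27ac in both lists. TEAD4 then no longer had H3K27ac in the soft list alone. The soft list was the longer of the pair, and in lists cut to equal length YAP1, TEAD4 and LATS2 still had H3K27ac in the soft list alone. That cut shortens the soft list alone and cannot add a stiff call. It therefore shows only that these soft peaks were not among the weakest of their list, in which 41.3%, 30.9% and 31.6% of peaks were weaker.

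Beyond the promoters, p-JUN was called in the gene body or its flanks in all 4 libraries at all 10 genes, against 67.0% of coding genes. The genes are long, with a median of 102 kb against 26.98 kb for coding genes, so their counts were also set per length. They had a median of 5.06 p-JUN regions per 100 kb, against 3.19 for coding genes. TEAD3 had the highest value, 11.5 regions per 100 kb, above 95.6% of coding genes, but only 2 of its 5 regions were called in all 4 libraries and the other 3 in 1 library each. TEAD2 had the lowest at 2.39. H3K27me3 was called at 1 of the 10 genes, in 1 library, against 27.6% of coding genes.

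**Figure D1:**
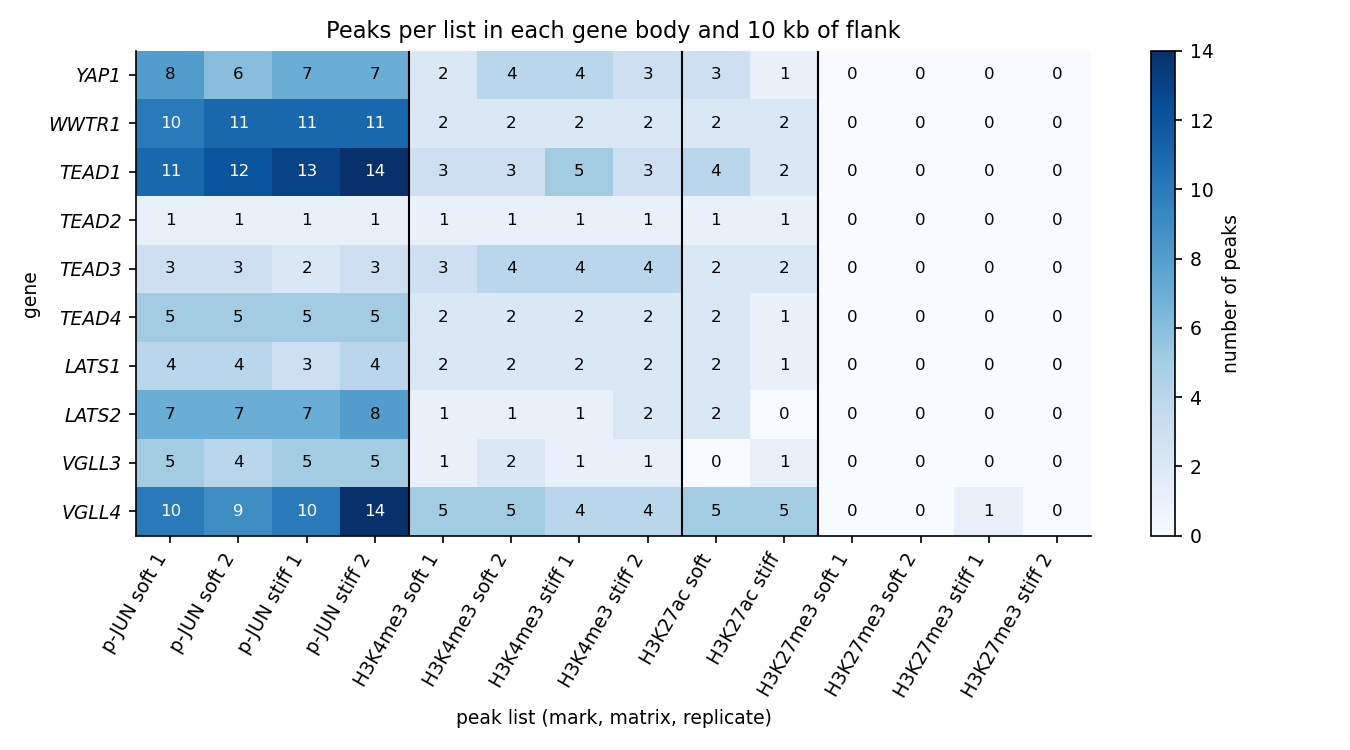
Number of peaks per list (columns: mark, matrix and replicate) in the body and 10 kb flanks of each gene (rows), with a darker blue for more peaks. TEAD1 and VGLL4 reached 14 p-JUN peaks in stiff replicate 2, TEAD2 had 1 peak in each list of p-JUN, H3K4me3 and H3K27ac, and the H3K27me3 columns are 0 but for 1 peak at VGLL4.

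Next, totals over the 10 genes were compared between the matrices. The p-JUN lists held 64 and 62 peaks on soft, against 64 and 72 on stiff, 63 ± 1.41 (SD, n = 2) against 68 ± 5.66 (SD, n = 2). The groups met at 64, and the log2 ratio of 0.11 was within the spread between replicates (two-sided exact permutation test, p = 0.667). With a −log10 q of at least 10 they met again, at 59. In the gene body alone the groups were apart (54 and 52 against 57 and 62). So they were with 50 kb of flank (81 and 80 against 85 and 93). In lists of equal length they were apart as well (59 and 62 against 63 and 65). The exact permutation p was 0.33 in each of these, the smallest that 2 against 2 libraries allow. With 10 kb of flank and full lists, the log2 ratio was 0.19 without stiff replicate 1 and 0.02 without stiff replicate 2. The H3K4me3 lists held 22 and 26 peaks on soft, against 26 and 24 on stiff, also overlapping (log2 ratio 0.06, exact permutation test, p = 1.00). Without soft replicate 1 that ratio was -0.06, and without stiff replicate 1 it was 0. The bases covered by H3K4me3 were 26438 and 27123 on soft, against 30891 and 29982 on stiff, so the groups did not overlap (log2 ratio 0.18). The exact permutation p of 0.33 for this cover is the smallest that 2 against 2 libraries allow. The stiff H3K4me3 libraries also held more fragments per summit over their whole lists, a median of 151 and 207 against 120 and 141. Their median peak width over the whole lists was 1001 and 1063 bp, against 992 and 989 bp on soft. The part of either in the difference was not tested. Cover over the whole lists was not computed, so the difference is not read as particular to these genes.

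The 400 peaks merged into 77 p-JUN, 29 H3K4me3, 24 H3K27ac and 1 H3K27me3 regions. All 4 libraries shared 54 of the p-JUN regions (70.1%), against 65.8% of all p-JUN regions. A further 5 were present in each stiff library but absent from both soft ones (6.49%, against 2.75% of all regions), and 0 were called in both soft libraries alone, against 1.74%. The 5 lay at VGLL4 (2 introns), VGLL3 (intron), TEAD1 (coding exon) and LATS2 (intron), with 24 to 54 fragments at the summit in either stiff library. None held the AP-1 motif near its summit, and 1, the VGLL4 region described below, held the TEAD motif. Without stiff replicate 1 there were 10 such stiff regions of 78, against 8.88% of all regions. Without soft replicate 1, soft replicate 2 or stiff replicate 2 there were 3, 3 and 2 regions on soft alone, against 3.88%, 5.92% and 5.88% of all regions. Of the H3K4me3 regions, 21 were in all 4 libraries and 0 were on either matrix alone, against 1.77% of all regions on stiff alone and 1.25% on soft alone. Without stiff replicate 2, stiff replicate 1 or soft replicate 2 there were 3, 2 and 1 H3K4me3 regions on stiff alone, against 3.24%, 5.24% and 4.30% of all regions. Without soft replicate 1 there was 1 on soft alone, against 4.03%.

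**Figure D2:**
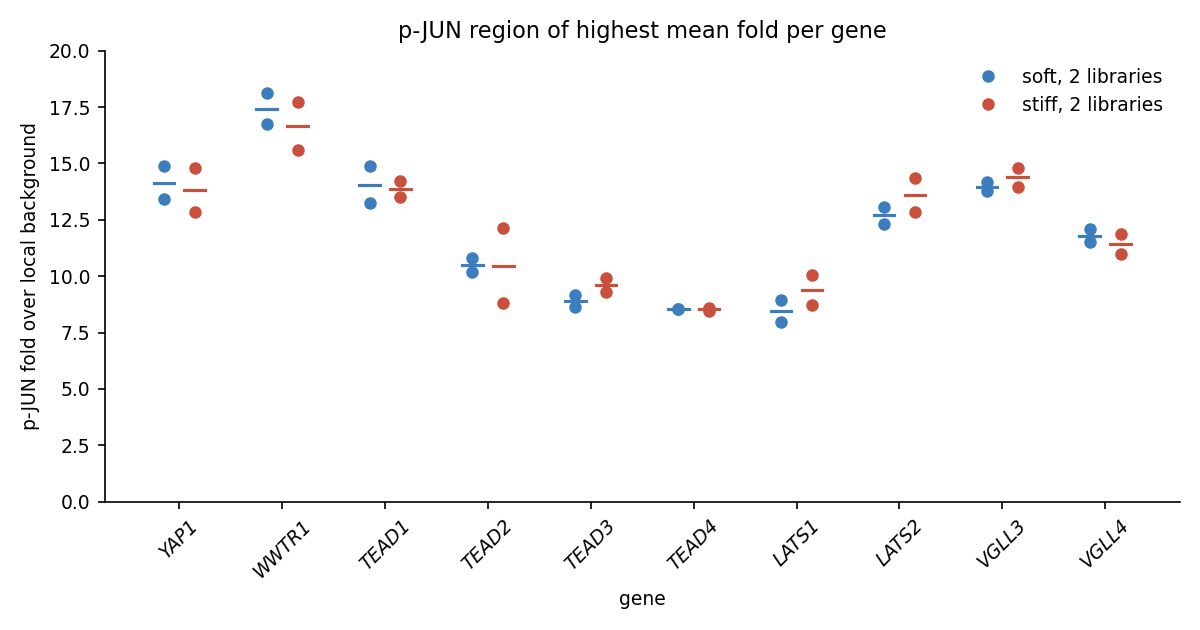
p-JUN fold over the local background (linear axis from 0) at the region of highest mean fold of each gene, with 1 point per library and a bar at the mean of the 2 libraries of a matrix. The soft and stiff ranges overlap at every gene but TEAD3, and the points run from 18.1 at WWTR1 in soft replicate 1 to 7.96 at LATS1 in the same library.

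p-JUN enrichment was then compared at regions called in all 4 libraries, by limma on the log2 of the deposited fold. None of 40433 regions passed an adjusted p of 0.05 (0%), and so 0 of the 54 regions around these genes did. At an unadjusted p under 0.05 there were 3773 regions in all (9.33%) and 3 of the 54 (5.56%). The median log2 difference, stiff minus soft, was -0.005 over the 54 and -0.009 over all regions. Without soft replicate 1 the fold gave 14 regions past the threshold in all, and without soft replicate 2 it gave 23, with 0 at these genes. A second height, the fragments at the summit recovered from the deposited values, gave another count. By limma on the log2 of those fragments 5467 regions passed (13.5%), and 5 of the 54 did (9.26%), at YAP1, VGLL4, LATS1 and LATS2 (2). The calls at these 5 regions therefore depend on the height taken, and their share was below that of all regions. Below, groups at single regions are described as apart or as overlapping. The share of all regions with groups apart was not computed, so such a separation alone is not read as a difference.

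**Figure D3:**
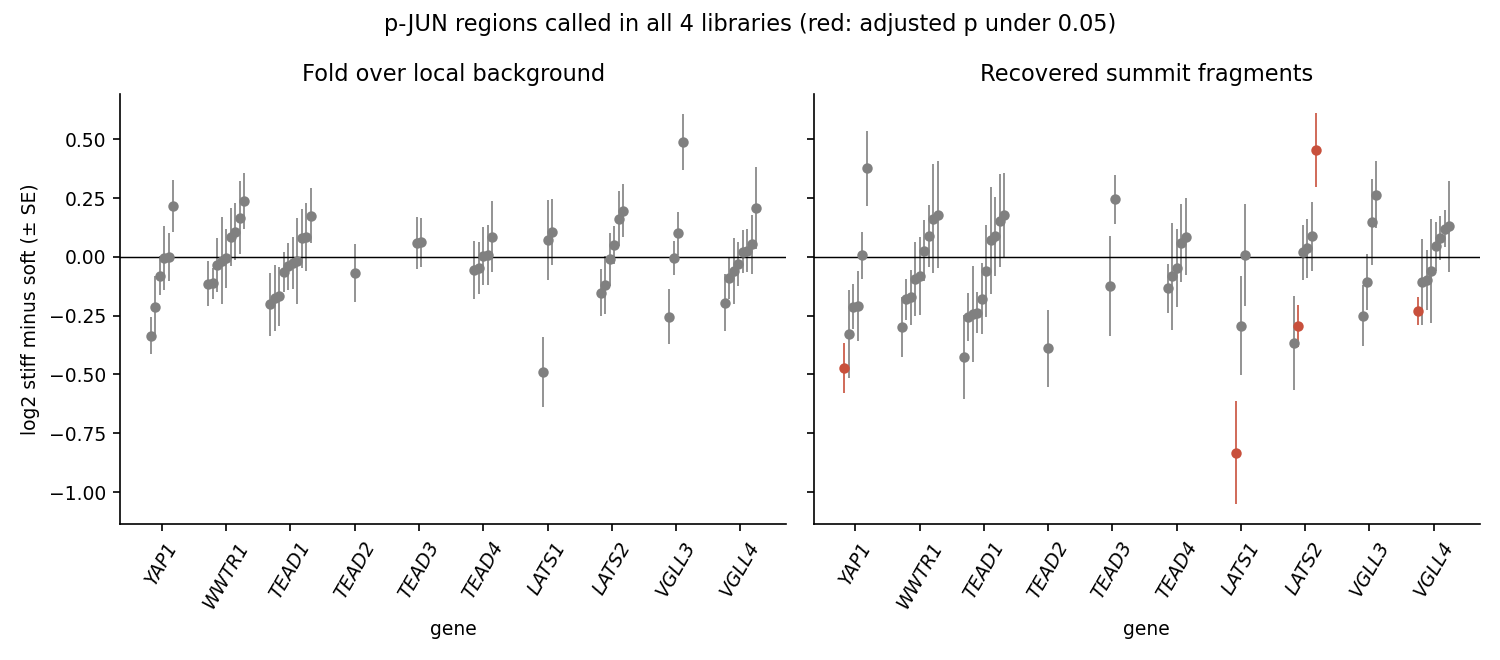
Difference between stiff and soft (log2, ± SE from limma) at the 54 p-JUN regions called in all 4 libraries, by gene, for the fold (left) and the recovered summit fragments (right), with regions of adjusted p under 0.05 in red. No region is red for the fold, and 5 are red for the fragments, of which 4 lie below 0.

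YAP1 (chr11:101981178-102104155, plus strand) encodes the coactivator YAP. It had 8, 6, 7 and 7 p-JUN peaks in soft replicates 1 and 2 and stiff replicates 1 and 2, which formed 8 regions. The strongest lay in an intron at chr11:102009049-102010244 with folds of 14.9 and 13.4 on soft, against 12.8 and 14.8 on stiff. The groups overlapped, and the log2 difference of -0.08 (SE 0.08) did not pass in limma (adjusted p = 0.829). No H3K4me3 or H3K27ac peak overlapped this region, and the shown sequence held none of the searched motifs.

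A second YAP1 intron region, at chr11:102048730-102049656, held 226 and 186 p-JUN fragments on soft, against 144 and 164 on stiff. Both stiff libraries were below both soft libraries. The log2 difference in fragments was -0.47 (SE 0.11, limma adjusted p = 0.000693), while that in fold, from 14.4 and 14.2 to 11.1 and 12.3, was -0.33 (SE 0.08, limma adjusted p = 0.345). H3K27ac at this place was called in the soft list alone, at chr11:102049037-102049286, with 18 fragments, and was lost in lists of equal length. Another intron region, at chr11:102096462-102097077, had a TEAD motif with its centre 1.5 bp from the summit and H3K27ac in both lists. Its p-JUN fragments were 73 and 61 on soft, against 78 and 104 on stiff. The groups did not overlap, and the log2 difference of 0.38 (SE 0.16) did not pass in limma (adjusted p = 0.0942).

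At the YAP1 promoter H3K4me3 formed 2 neighbouring regions around the first start site, each overlapped by p-JUN. The downstream p-JUN region, chr11:101981502-101983515, had folds of 10.1 and 9.44 on soft, against 9.31 and 10.8 on stiff, which overlapped. H3K27ac lay on it in the soft list alone, with 34 fragments at chr11:101982633-101982903. H3K4me3 folds at that place were 5.19 and 6.47 on soft, against 5.69 and 5.47 on stiff, with a log2 difference of -0.13 (SE 0.11, limma adjusted p = 0.74).

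**Figure D4:**
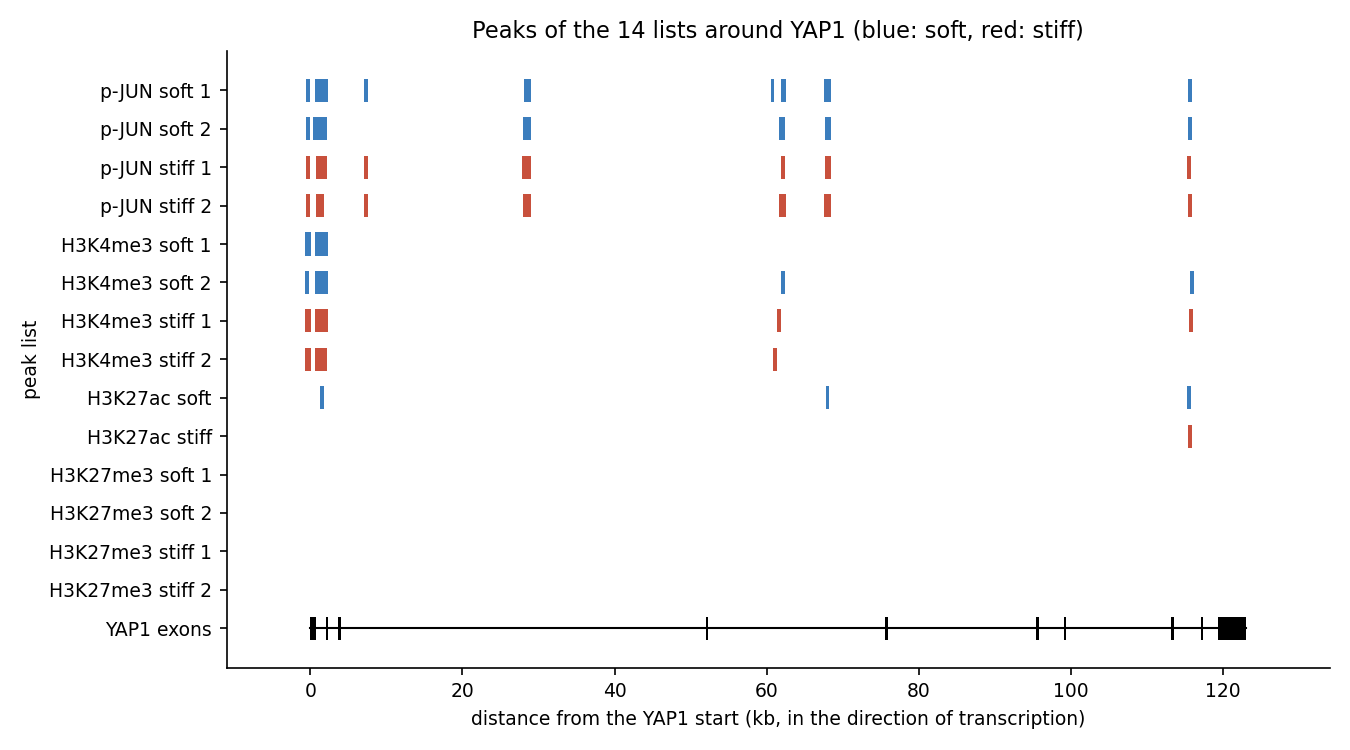
Map of YAP1 and its flanks: peaks of each of the 14 lists (rows, blue for soft and red for stiff) against the distance from the start of the gene in kb, with the exons below (narrow peaks and exons are drawn at a minimum width). p-JUN peaks recur in all 4 libraries at 6 of the 8 places, H3K27ac appears at 3 places in the soft list and at 1 in the stiff list, and no H3K27me3 peak is present.

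WWTR1 (chr3:149235022-149454501, minus strand) encodes TAZ, the paralogue of YAP. It had 10 and 11 p-JUN peaks on soft, against 11 and 11 on stiff, in 12 regions, of which 9 were in all libraries. Its intron region at chr3:149363869-149364444 had the highest mean p-JUN fold of any region of these genes, above 99.0% of all p-JUN regions. The folds were 18.1 and 16.7 on soft, against 15.6 and 17.7 on stiff, and the fragments 146 and 118 against 113 and 109. The folds overlapped while the fragments were lower in both stiff libraries, and neither the log2 fold difference of -0.11 (SE 0.07, limma adjusted p = 0.648) nor that in fragments, -0.30 (SE 0.13, limma adjusted p = 0.10), passed. The AP-1 motif had its centre at -27 bp from the summit, and no histone mark was called there. H3K27ac stood in both lists at 2 WWTR1 promoters, with 47 and 38 fragments in the soft and stiff lists at one and 36 and 22 at the other. The centred log2 ratios of fragments were -0.10 (95% exact binomial interval -0.75 to 0.55) and -0.50 (-1.34 to 0.30), so neither interval left out 0.

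TEAD1 (chr11:12695968-12966284, plus strand), the longest of the 10 genes, had 11 and 12 p-JUN peaks on soft, against 13 and 14 on stiff. The strongest of its 16 regions was at its promoter. Its p-JUN folds were 13.2 and 14.9 on soft, against 13.5 and 14.2 on stiff, with 211, 218, 166 and 210 fragments in that order. The groups overlapped in fold, and the log2 fold difference was -0.06 (SE 0.09, limma adjusted p = 0.877). In fragments both stiff libraries were below both soft ones, and the log2 difference of -0.26 (SE 0.10) did not pass in limma (adjusted p = 0.0742). H3K4me3 was called in all 4 libraries at chr11:12696955-12698669, with its summit 0.928 kb downstream of another annotated TEAD1 start site. At the p-JUN region itself it was called in stiff replicate 1 alone. No H3K27ac peak lay on this promoter. An intron region at chr11:12714342-12715903 carried p-JUN (313, 298, 239 and 304 fragments in the same order), with H3K27ac in both lists and H3K4me3 in all 4 libraries. H3K27ac was called in the soft list alone in 2 other TEAD1 introns. In lists of equal length the region described next kept that call and the other lost it. The region at chr11:12753477-12753737, with a fold of 7.82 and 24 fragments, was the strongest of all soft-only H3K27ac regions of these genes by fold.

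TEAD2 (chr19:49843852-49865714, minus strand) had 1 p-JUN region, at chr19:49866591-49867156, where its promoter faces that of DKKL1. The region carried H3K27ac in both lists, and H3K4me3 in all 4 libraries. p-JUN folds were 10.8 and 10.2 on soft, against 8.79 and 12.1 on stiff, so the stiff libraries lay on both sides of the soft ones. H3K27ac held 33 fragments on soft, against 20 on stiff, a centred log2 ratio of -0.51 (95% exact binomial interval -1.39 to 0.33).

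TEAD3 (chr6:35441374-35464856, minus strand) was the gene of this group without promoter p-JUN. The flank on the far side of the gene holds the start of the neighbouring gene RPL10A. The strongest p-JUN lay in an intron at chr6:35452603-35453608, with folds of 9.17 and 8.65 on soft, against 9.30 and 9.90 on stiff and 191, 163, 192 and 246 fragments. The stiff values were above the soft values on both scales, and the differences of 0.06 (SE 0.10) in log2 fold and 0.24 (SE 0.10) in log2 fragments did not pass in limma (adjusted p = 0.903 and 0.0913). H3K27ac at the same intron held 61 fragments in the soft list, against 79 in the stiff one. The centred log2 ratio was 0.58 (95% exact binomial interval 0.08 to 1.09, counting error only). Of the 15 shared H3K27ac regions it alone had an interval that left out 0. The share of such intervals over all 11044 shared regions was not computed. With 1 list per matrix, the interval is not read as a difference at TEAD3.

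At the TEAD3 promoter H3K4me3 formed a region on each side of the start site. The downstream one, at chr6:35463160-35464248, had folds of 4.83 and 4.93 on soft, against 4.14 and 4.21 on stiff. The upstream one, at chr6:35465242-35466054, had 4.769 and 5.0004 on soft, against 6.11 and 6.12 on stiff. Both pairs of groups were apart, in opposite directions, with log2 differences of -0.30 (SE 0.08) and 0.25 (SE 0.09). Neither passed in limma (adjusted p = 0.408 and 0.456).

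TEAD4 (chr12:3068496-3149842, plus strand) had 5 p-JUN peaks in each library, and all 5 regions were in all 4 libraries. The strongest, in an intron at chr12:3072844-3073578, had folds of 8.54, 8.54, 8.46 and 8.61, the narrowest range among the regions of highest fold of these genes, and H3K27ac in both lists with 30 and 28 fragments. At the promoter, H3K27ac was called in the soft list alone, at chr12:3067719-3067991 with 29 fragments. H3K4me3 there had folds of 4.95 and 4.35 on soft, against 3.97 and 3.66 on stiff. The stiff values were both lower, and the log2 difference of -0.36 (SE 0.11) did not pass in limma (adjusted p = 0.441). The other H3K4me3 region of this promoter, at chr12:3069064-3070205 downstream of the start, had folds of 5.42 and 6.31 on soft, against 6.14 and 6.75 on stiff, which overlapped (log2 difference 0.06, SE 0.10, limma adjusted p = 0.868). The p-JUN folds upstream of the start were 3.92 and 5.11 on soft, against 4.64 and 5.17 on stiff, which overlapped.

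LATS1 (chr6:149979289-150039241, minus strand) encodes a kinase that inactivates YAP and TAZ. It had 4 p-JUN peaks in 3 libraries and 3 in stiff replicate 1. The region of highest fold lay in an intron at chr6:150025847-150026203, with folds of 7.96 and 8.96 on soft, against 10.1 and 8.73 on stiff and 33 to 36 fragments in any library. At the promoter H3K27ac held 37 fragments on soft, against 33 on stiff. The region with the largest difference lay within the 10 kb flank, at the start of the neighbouring gene KATNA1 (chr6:149969504-149970360). p-JUN fragments there were 43 and 42 on soft, against 22 and 28 on stiff, with both stiff libraries lower. The log2 difference in fragments was -0.83 (SE 0.22, limma adjusted p = 0.00465), and that in fold, -0.49 (SE 0.15), did not pass (limma adjusted p = 0.423). H3K27ac at this place was called in the soft list alone, with 17 fragments, and was lost in lists of equal length.

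LATS2 (chr13:21547175-21635725, minus strand), the paralogous kinase, had 7 and 7 p-JUN peaks on soft, against 7 and 8 on stiff. The strongest of its 8 regions lay upstream, at chr13:21643727-21644152, with the centre of a TEAD motif at -16.5 bp from the summit and folds of 12.3 and 13.1 on soft, against 12.9 and 14.3 on stiff. At the 1 kb limit the LATS2 promoter was the exception in H3K4me3, whereas within 2 kb of a start site all 10 genes had it in all 4 libraries. A peak within 1 kb of its start site was called in stiff replicate 2 alone, and the H3K4me3 region in all 4 libraries had its summit 1.36 kb downstream. That region had folds of 7.53 and 8.33 on soft, against 7.38 and 6.90 on stiff, with a log2 difference of -0.22 (SE 0.09) that did not pass in limma (adjusted p = 0.499). H3K27ac on the promoter was in the soft list alone, with 23 fragments, beside p-JUN in all 4 libraries. With the 1 kb limit, the promoter calls of LATS2 over the 14 lists were shared by 2 coding genes in all, LATS2 included.

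In the introns of LATS2, p-JUN differed in opposite directions by the count of fragments. At chr13:21591088-21592001 there were 306 and 283 fragments on soft, against 240 and 260 on stiff. The log2 difference was -0.29 (SE 0.09, limma adjusted p = 0.016), and in fold -0.15 (SE 0.10, limma adjusted p = 0.698). At chr13:21625014-21625465 there were 72 and 61 on soft, against 85 and 105 on stiff. The log2 difference was 0.46 (SE 0.16, limma adjusted p = 0.0355), and in fold 0.16 (SE 0.12, limma adjusted p = 0.726). Neither region carried a histone mark. A further intron, at chr13:21571783-21572187, had p-JUN in both stiff libraries alone (53 and 54 fragments) and H3K27ac in the soft list alone (23 fragments). These calls ran opposite ways in the full lists, but the H3K27ac peak was lost when the lists were cut to equal length.

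VGLL3 (chr3:86925538-87040299, minus strand) belongs to the vestigial-like cofactors, which bind TEAD factors. It had 5 and 4 p-JUN peaks on soft, against 5 and 5 on stiff. Its strongest region, in an intron at chr3:87022671-87023320, had folds of 14.2 and 13.8 on soft, against 13.96 and 14.8 on stiff (log2 difference -0.003, SE 0.07, limma adjusted p = 0.994). On it lay the only H3K27ac region of these genes called in the stiff list alone, at chr3:87022762-87023036 with 13 fragments. In the flank upstream, at chr3:87044849-87046176, p-JUN folds were 3.97 and 3.81 on soft, against 5.58 and 5.68 on stiff. The groups were apart, and the log2 difference of 0.49 (SE 0.12) did not pass in limma (adjusted p = 0.357).

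VGLL4 (chr3:11597543-11812824, minus strand), a cofactor known to compete with YAP for TEAD, has 15 annotated coding start sites, the most of the 10 genes. It had 10 and 9 p-JUN peaks on soft, against 10 and 14 on stiff. The p-JUN region with the most fragments of any here lay at one of its promoters, at chr3:11609337-11610494, with 919 and 833 fragments on soft, against 705 and 853 on stiff. These counts overlapped. After centring on the median of each library, the log2 difference was -0.23 (SE 0.06, limma adjusted p = 0.00432), and that in fold, from 11.5 and 12.1 to 11.0 and 11.9, was -0.09 (SE 0.09, limma adjusted p = 0.816). H3K27ac on it held 77 fragments in the soft list, against 66 in the stiff one. The strongest region on stiff alone was in a VGLL4 intron at chr3:11732604-11733125, with folds of 7.91 and 9.37 and 28 and 36 fragments. The H3K27me3 peak of these genes lay in another VGLL4 intron, at chr3:11767421-11767794 in stiff replicate 1.

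Across the 10 genes, 24 H3K27ac regions were found, of which 15 were shared by both lists. The soft list alone held 8 (33.3%, against 35.0% of all H3K27ac regions) and the stiff list alone 1 (4.17%, against 10.9%). Both shares were near or below those of all regions. In lists of equal length there were 4 on soft alone and 3 on stiff alone, against 22.45% and 22.28% of all regions. The 4 were the promoters of YAP1, TEAD4 and LATS2 and the TEAD1 intron named above, and the 3 lay at VGLL4, VGLL3 and TEAD4. At the 15 shared regions the centred log2 ratio of fold had a median of 0.04 and ran from -0.46 to 0.29. None of the 15 differed 2-fold, nor did any of the 11044 shared regions (0% higher and 0% lower on stiff). By recovered fragments the 15 ran from -0.55 to 0.58 with a median of -0.04, so the sign of the median depends on the height taken. Again none differed 2-fold, against 0.616% of all shared regions at least 2-fold higher on stiff and 0.290% lower. With 1 list per matrix these ratios have no replicate check, and the intervals given cover counting error only.

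**Figure D5:**
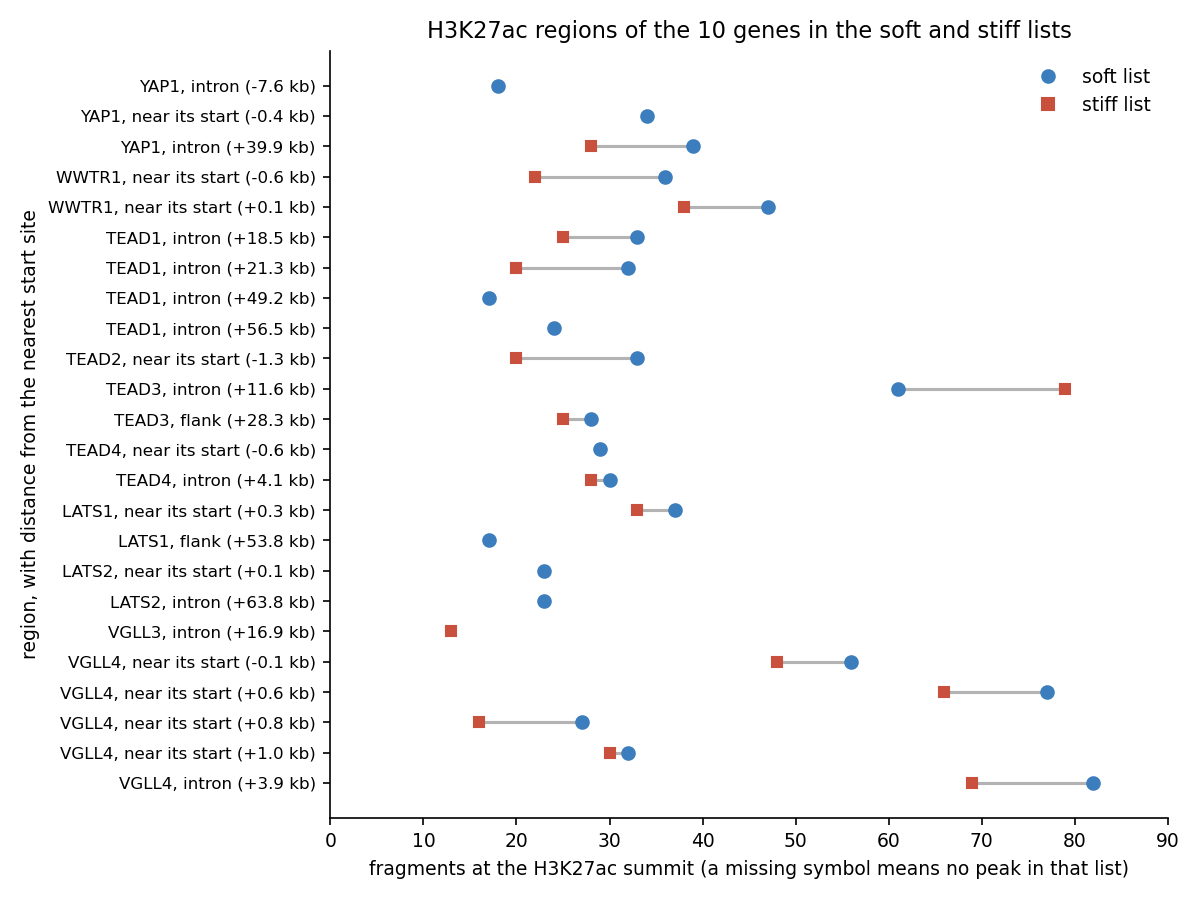
Fragments at the H3K27ac summit in the soft list (blue circles) and the stiff list (red squares) at the 24 regions, named by gene, place and distance from the nearest start site of that gene. Lines join the 15 shared regions, of which the TEAD3 intron alone is higher in the stiff list, and the YAP1, TEAD4 and LATS2 promoters have a symbol in the soft list alone.

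Of the 77 p-JUN regions, 18 (23.4%) lay within 1 kb of a coding start site, against 18% of all p-JUN regions. Among these 18, H3K27ac was in both lists at 9 (50%, against 31.1%) and in the soft list alone at 4 (22.2%, against 16.1%). Away from start sites, 48 of 59 p-JUN regions (81.4%) had no H3K27ac in either list, against 74.9%. H3K4me3 regions called in all libraries gave no difference past the threshold either. None of 16098 regions passed in limma on the fold (0%), and 1607 (9.98%) had an unadjusted p under 0.05, among them 4 of 21 (19%) at these genes, the 2 at TEAD3 and those of TEAD4 and LATS2. On fragments 718 regions passed (4.46%), with 0 of the 21 among them, and an unadjusted p under 0.05 was found at 3 of the 21 (14.3%) and at 3547 of the 16098 regions (22%). No H3K27me3 region of these genes was called in both libraries of either matrix. Of all H3K27me3 regions, 0.484% were on stiff alone, 7.54% on soft alone and 10.2% in all 4 libraries. Without stiff replicate 2, the VGLL4 region made 1 on stiff alone, against 6.46% of all regions.

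Another 26 genes of the Hippo pathway were read by the same promoter calls. H3K4me3 was in all 4 libraries at 24 of the 26, against 62.8% of coding genes, the exceptions being the protocadherin gene DCHS1 and VGLL1. p-JUN was in all 4 at 17 of 26, against 38.2%. H3K27ac was in both lists at 7, against 21.3% of coding genes. It was in the soft list alone at 5 (FRMD6, TAOK3, MAP4K4, AMOTL1 and AMOTL2), against 10.7%. It was in the stiff list alone at 3 (STK3, LIMD1 and RASSF1), against 2.58%. STK3 encodes a kinase that activates the LATS kinases, and AMOTL1 and AMOTL2 encode angiomotins, which hold YAP and TAZ in the cytoplasm. FRMD6, TAOK3, AMOTL1 and AMOTL2 had the same calls in all 14 lists as YAP1 and TEAD4, a pattern of 1349 coding genes. STK4, MOB1B, NF2, TAOK1, PTPN14 and TP53BP2 matched WWTR1, TEAD2, LATS1 and VGLL4, a pattern of 3421 coding genes. SAV1, WWC1, AJUBA and FAT4 matched TEAD1 and VGLL3 (1903 genes), and WWC2 matched TEAD3 (1879 genes). H3K27me3 was found at the gene or its flanks at AMOTL1, VGLL1 and VGLL2 of the 26, against 27.6% of coding genes. DCHS1, VGLL1, VGLL2, MAP4K4, STK3, LIMD1 and RASSF1 are named because their counts are small, after their values had been seen.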

How the data were processed

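CUT&Tag peak lists of LX-2 cells (2 libraries per matrix for p-JUN, H3K4me3 and H3K27me3, and 1 merged list per matrix for H3K27ac) were analysed. The authors trimmed reads with Trim Galore, aligned them to hg19 with Bowtie2 and treated duplicates with Picard, and peaks came from MACS2, whose version and options are not given in the sources used here. The deposited lists give per peak a score, a fold (ratio of summit signal over local background), −log10 p and −log10 q. Narrow peaks had a −log10 q of at least 5 and the broad H3K27me3 peaks of at least 1.31. Read totals were not analysed here. For narrow lists the summit fragments were recovered from the deposited fold and −log10 p (whole numbers for 100% of peaks at a relative tolerance of 1e-04).

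All peaks ended within the GRCh37 chromosome lengths. Peaks on 24 chromosomes were used, which left out 2 to 8 peaks per list on other sequences. Genes were protein-coding genes of GENCODE 44 mapped to GRCh37. Peaks of a mark sharing at least 1 bp were merged, and the highest peak per library gave the height. Regions in all 4 libraries were tested with limma 3.58.1 (R 4.3.3; trend, Benjamini-Hochberg adjustment over all those regions) on log2 fold centred on each library's median, and totals by exact permutation tests. H3K27ac ratios were centred on the median of shared regions. Fits were tested on simulated data. Other steps used scipy 1.17.1, pandas 2.3.3 and numpy 2.4.6 under Python 3.11.15, with matplotlib 3.10.9 for figures. Replicates are separate libraries of 1 cell line, so errors cover the spread between these libraries.

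Members, gene lists and motifs were chosen with earlier results of these data known. Named were, per gene, the p-JUN region of highest mean fold, the strongest region on 1 matrix alone per mark and direction, and regions that passed limma on the fold. Regions named for H3K4me3, for recovered fragments or as other examples were chosen after their values were seen. Alternatives were the window (gene body alone, or 50 kb of flank), −log10 q of at least 10 (narrow) or 2 (broad), lists of equal length, each replicate left out, the replicate number as a block, 50% overlap, recovered fragments, quantile normalization, promoters of 500 bp and 2 kb, motifs within 100 bp and the longer TEAD motif. Equal lengths for promoter calls were added after the data had been seen. The summit sequence of 1 promoter region is not reported here.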

Additional observations from a re-analysis of the deposited data

How the results depend on the processing

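Of 164 alternative values, 26 moved past the limits set for them and 4 reversed. The median H3K27ac log2 ratio, not counted among these, also changed sign, from 0.04 to -0.04 by recovered fragments. With 50 kb of flank the log2 ratio of H3K4me3 peaks was -0.0217, the H3K27me3 difference -0.5 peaks and its cover -865.5 bp, and 3 H3K27ac regions were on stiff alone. With the stricter −log10 q the H3K27me3 difference was 0 peaks and 0 bp, and 0 H3K27ac regions were on stiff alone. Equal-length lists gave 4 H3K27ac regions on soft alone and 3 on stiff alone. Recovered fragments gave 5467 p-JUN regions past limma's threshold, 5 of them at these genes, and 718 H3K4me3 regions. The longer TEAD motif gave 5.19%.

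Leaving out each library in turn gave 5 to 10 p-JUN regions on stiff alone and 0 to 3 on soft alone. For H3K4me3 these were 0 to 3 and 0 to 1, and for H3K27me3 0 to 1 on stiff alone. The p-JUN log2 ratio ran from 0.02 to 0.19, the H3K4me3 ratio from -0.05658 (without soft replicate 1) to 0.18, the H3K27me3 difference from 0 to 1 peaks and from 0 to 374 bp. limma passed 0 to 23 p-JUN regions (14 without soft replicate 1, 23 without soft replicate 2) and 0 to 1 H3K4me3 regions, with 0 at these genes.

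With the replicate number as a block, limma on the fold passed 41 p-JUN regions and 0 H3K4me3 regions, with 0 at these genes. The blocked log2 ratios were 0.11 for p-JUN and 0.06 for H3K4me3 peaks. Same-numbered libraries share only a number: their deviations correlated at 0.00468 for p-JUN and -0.0501 for H3K4me3 over regions. The cause of these shifts was not tested. With 2 libraries per group no permutation p can fall below 0.33, H3K27ac has no replicate, and H3K27me3 depth is unknown.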
